A study of Homo sapiens with 12 samples.

Results

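The 10 genes described here encode histone variants and are grouped as genes with polyadenylated mRNAs, in contrast to the bulk of histone mRNAs. They were chosen by symbol as H2AFZ, H2AFV, H2AFX, H2AFY, H2AFY2, H3F3A, H3F3B, CENPA, H1F0 and H1FX. All 10 were listed among the 25268 gene symbols measured, and all 10 passed the filter on low values that left 14676 genes for testing.

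HEK293, an established human embryonic kidney cell line, was transiently transfected with 2 µg of pCMV6-HIS-HA-RBMX, a plasmid for His-HA-tagged RBMX driven by a viral promoter, or with the mock empty vector, whose cells the labels call wild type. RBMX is an RNA-binding protein that takes part in splicing. There were 3 cultures per vector, and each lysate was cleared of nuclei and debris and separated on a sucrose gradient after cycloheximide, which halts ribosomes on the mRNA. Each culture gave a total library, pooled from a fixed part of every gradient fraction, and a polysomal library from the fractions that hold mRNAs with several ribosomes. Each of the 4 groups therefore has 3 libraries, 12 in all, made from 500 ng of RNA apiece. The comparisons ask whether RBMX overexpression moved these mRNAs in total or polysomal RNA, and whether polysomal RNA held more or less of them than total RNA.

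Canonical histones are made in S phase from intronless genes whose mRNAs end in a conserved stem-loop and carry no poly(A) tail. Many variant histones are made throughout the cell cycle, mostly from polyadenylated mRNAs, and variants replace canonical histones at particular places. H2A.Z (H2AFZ, H2AFV) sits at promoters and enhancers, H2A.X (H2AFX) is phosphorylated at DNA breaks, and macroH2A (H2AFY, H2AFY2) is found in silent chromatin. H3.3 (H3F3A, H3F3B) is put into active genes and telomeres outside replication, and CENP-A (CENPA) marks centromeres. H1.0 (H1F0) and H1X (H1FX) are linker histones, of which H1.0 accumulates in cells that divide slowly or differentiate.

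In the GENCODE annotation of GRCh38, which is not the build of the deposited values, the genes lie apart on 10 chromosomes. H2AFZ is at chr4:99948086-99950388 on the minus strand, H2AFV at chr7:44826791-44848083 on the minus strand and H2AFX at chr11:119093854-119095467 on the minus strand. H2AFY is at chr5:135333900-135399914 on the minus strand and H2AFY2 at chr10:70052796-70112280 on the plus strand. H3F3A is at chr1:226061851-226072001 on the plus strand, H3F3B at chr17:75776434-75785893 on the minus strand and CENPA at chr2:26764289-26801067 on the plus strand. H1F0 is at chr22:37805093-37807436 on the plus strand and H1FX at chr3:129314771-129316277 on the minus strand. H2AFX, H1F0 and H1FX have 1 exon, like canonical histone genes, whereas the longest coding transcripts of the others have 3 to 9. Each value below covers the whole gene, exons of every isoform together.

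Pairs of these genes encode the same or nearly the same protein from clearly different mRNAs, which is what lets fragments be assigned to each. The coding sequences of H3F3A and H3F3B have 411 bases and differ at 88 of them, yet 0 of the 136 residues differ. Those of H2AFZ and H2AFV have 387 bases and differ at 76, and 3 of 128 residues differ. H2AFY and H2AFY2 are further apart, with 67.6% of 1119 aligned coding bases identical and 120 of 372 residues differing. The first 30 coding bases are shown because they make the difference visible, with capitals at the 6 bases in each pair where a gene differs from its partner.
H3F3A: atggcTcgTacAaagcagactgcCcgCaaA
H3F3B: atggcCcgAacCaagcagactgcTcgTaaG
H2AFZ: atggctggCggTaaGgctggaaaggacTCC
H2AFV: atggctggAggCaaAgctggaaaggacAGT

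At the cutoff used here no near copy was found for H3F3B, but some were found for H3F3A. The processed pseudogene H3F3AP4 is identical to its coding sequence at 411 of 411 bases, and 5 other genes share at least 100 bases with an H3F3A coding transcript at 97% identity or more. Of those 5 only H3F3AP4 is listed among the measured genes, so the fragments counted for H3F3A are uncertain. H2AFV shares such a stretch with the pseudogene H2AFVP1, while H2AFY and H1FX share theirs with genes that overlap them on the opposite strand, C5orf66 and H1FX-AS1 among them. Whether the counting used strand is not given in the sources used here, so fragments of H2AFY and C5orf66, H1FX and H1FX-AS1, H2AFY2 and AIFM2, and H3F3B and UNK cannot be told apart where these genes overlap. H2AFZ, H2AFX, H2AFY2, H3F3B, CENPA and H1F0 had no such stretch in another gene, but CENPA overlaps SLC35F6 on the same strand, where counting by strand could not separate them either, and H3F3B overlaps MIR4738 in the same way.

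The 3′ ends of the transcripts are shown because they set most of these genes apart from the canonical ones. In the GENCODE transcripts 8 of 10 genes had AATAAA or ATTAAA, the usual poly(A) signals, in the last 40 bases on the transcript strand, as did 80.76% of 19669 protein-coding genes but 30.99% of 71 replication-dependent histone genes. The stem-loop was searched on the transcript strand only as GGC, any base, CT, any base, T, any pair of bases, AG, any base and GCC, letters that cannot overlap the poly(A) signals. It was found in 1 of the 10 genes, H2AFX, in 43.66% of replication-dependent histone genes and in 0.34% of all protein-coding genes. H2AFX and H2AFY were the members without a poly(A) signal in that window. Whether the H2AFX mRNA counted here carried a poly(A) tail was not tested. In H2AFX it ended 1044 bases before the end of the 1614-base transcript, so the annotation holds both a stem-loop and a long stretch after it. The signals of H2AFZ, H3F3B and H1F0 and the stem-loop of H2AFX are given in capitals, next to the stem-loop of HIST3H2A, the gene with the highest mean FPKM among the replication-dependent histone genes in which these letters were found. The stem-loop of HIST3H2A also lay inside its transcript, ending 390 bases before the end of 895 bases.
H2AFZ: gtggataagttcAATAAAggtcatatccca
H3F3B: ggatgagactaaAATAAAatttttgaagtt
H1F0: ttaaaactttaaAATAAAttggaaaaggga
H2AFX: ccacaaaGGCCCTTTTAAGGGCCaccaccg
HIST3H2A: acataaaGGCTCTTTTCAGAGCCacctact

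Before the results, 3 facts about the libraries matter. RBMX itself ran from 87.4 to 148 FPKM (fragments per kilobase of transcript, relative to the mapped fragments of the library) in the control libraries and from 1072 to 2073 in the RBMX libraries, which fits the labels, although plasmid and endogenous RBMX mRNA are not separated. The HEK293 markers VIM, KRT8, KRT18, NEFL, NEFM, INA, PAX2 and LIN28B were present in every library, PTPRC, PECAM1, CD3E and ALB stayed at or below 0.226 FPKM, and COL1A1 ran from 3.14 to 8.61. Control culture 3 stood apart: 12.1% of 14171 genes in its total and 18.9% in its polysomal library lay over 0.5 on the log2 scale from the mean of the other 2 replicates, against 0.945% to 3.99% elsewhere. The summed level of the 8 HEK293 markers was 467 and 431 there and 881 to 1014 in the other libraries. In RBMX polysomal culture 2 the 73 replication-dependent histone genes summed to 2313 FPKM, against 534 to 786 in the other 11 libraries. Sequencing depth is unknown, and the FPKM sums ran from 817528 to 1903317, with 40.6% to 72.8% in small RNA genes. Whether these libraries shaped a result below was tested only where a value without them is given. In a bulk sample fewer expressing cells and less RNA per cell cannot be told apart.

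H2AFZ was by far the most abundant of the variant mRNAs. Averaged over the 12 libraries its level was 1010.1 FPKM, 43.3% of the sum of the 10 genes and at the 98.7th percentile of the genes tested. H3F3B followed with 410.4, H2AFX with 239, H2AFY with 204, H1F0 with 149, H2AFV with 142, H1FX with 109, H2AFY2 with 36.8, CENPA with 26.5 and H3F3A with 5.03. When the genes were ranked by their means within a group, the libraries of most neighbours did not overlap. The exceptions in control total RNA were H2AFX and H2AFY, H2AFY and H2AFV, and H2AFY2 and CENPA, and the last 2 of these pairs also overlapped in control polysomal RNA. In RBMX total RNA the exceptions were H2AFX and H2AFY, H2AFY and H1F0, and H1F0 and H2AFV, and in RBMX polysomal RNA they were H2AFX and H2AFY, H1F0 and H2AFV, and H2AFV and H1FX. Across all 12 libraries the highest value exceeded the lowest by 1.22 times for H3F3B, the steadiest, by 1.36 to 1.81 times for H2AFX, H2AFV, H1FX, H2AFY, H2AFY2, H2AFZ and H1F0, by 2.08 times for CENPA and by 7.09 times for H3F3A.

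**Figure D1:**
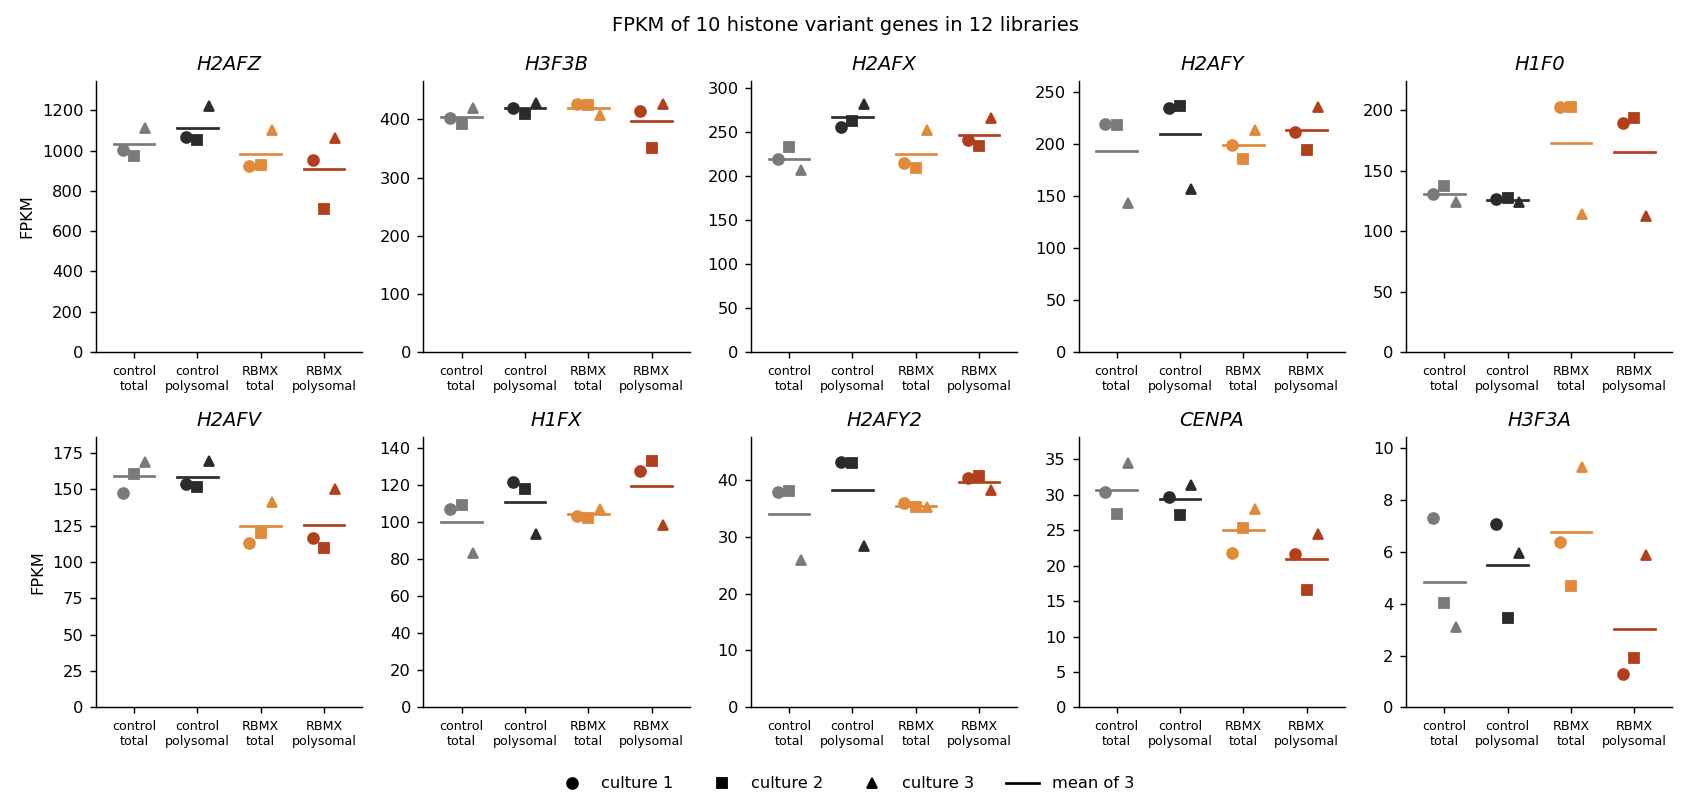
FPKM of each of the 10 histone variant genes, one panel per gene with its own axis from 0, in the 3 libraries of each group (points by culture, line the mean). H2AFZ averages 1010.1 and H3F3A under 10, H1F0 splits RBMX cultures 1 and 2 from culture 3, and H2AFY, H2AFY2 and H1FX are lowest in control culture 3.

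In total RNA H2AFV, one of the 2 H2A.Z genes, was the only member whose RBMX libraries all lay on one side of the control libraries, below them. Over all genes 27.3% had groups that did not overlap, in either direction. The estimates ran from -0.35 for H2AFV to 0.36 for H1F0 and 0.44 for H3F3A on the log2 scale, and the typical 95% interval of a member reached 0.31 to either side. None of the 10 passed the test (limma, adjusted p up to 0.05 over all 14676 genes), which 0.164% of genes did, and 1 had an unadjusted p under 0.05, where 18.8% of genes did. The estimates had a median of 0.06 on the log2 scale beside 0 for all genes, with 7 above 0 and 3 below, or 3 above and 7 below after quantile normalization.

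H2AFV measured 147, 161 and 169 FPKM in control total RNA and 113, 120.2 and 141 with RBMX. All 3 RBMX libraries lay below all 3 control libraries, as happened in this direction for 15.4% of genes. The log2 fold change of FPKM + 1 was -0.35 (SE 0.10, 95% interval -0.61 to -0.09, limma adjusted p = 0.195), a level of 0.783 times the control. Its limma adjusted p ran from 0.0793 to 0.552 over the alternatives. The lowest came from leaving out culture 3 of both vectors, which was added after the data were seen. With a library left out the lowest was 0.122.

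H2AFZ, which encodes the other H2A.Z, measured 1006, 976 and 1112 FPKM in control and 925, 931 and 1101 in RBMX total RNA. The groups overlapped, and the log2 fold change was -0.07 (SE 0.12, limma adjusted p = 0.785). Its share of the summed H2AFZ and H2AFV level was 87.2%, 85.9% and 86.8% in control and 89.1%, 88.6% and 88.6% in RBMX total RNA. The share was thus higher in every RBMX library, by 2.15 percentage points (exact permutation p = 0.1, two-sided, which is the lowest value available with 3 libraries a group). In polysomal RNA the shares were 87.4%, 87.5% and 87.8% against 89.1%, 86.6% and 87.6%, and the difference of 0.24 points was within the spread (exact permutation p = 0.8). The share also did not overlap between fractions of control cells, where polysomal RNA was higher by 0.93 points (exact permutation p = 0.1). In RBMX cells polysomal minus total RNA was -0.98 points, and the groups overlapped (exact permutation p = 0.4).

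H2AFX, the variant phosphorylated at DNA breaks, measured 218, 233 and 206 FPKM in control and 215, 209 and 251 in RBMX total RNA, overlapping groups with a log2 fold change of 0.03 (SE 0.10, limma adjusted p = 0.875). The macroH2A genes had groups that overlapped, with 1 low control culture. H2AFY measured 219, 218 and 144 FPKM in control and 199, 186 and 214 in RBMX total RNA, and H2AFY2 measured 37.9, 38.0 and 25.9 against 35.8, 35.2 and 35.2. Control culture 3, which stood apart over all genes, gave the lowest value of both. Their log2 fold changes were 0.07 (SE 0.18) and 0.08 (SE 0.16), and without control culture 3 they were -0.14 and -0.10, in neither case past the test.

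H3F3B, the source of most H3.3 mRNA counted here, had overlapping groups. It measured 402, 393 and 420.0 FPKM in control and 427, 425 and 407 in RBMX total RNA, a log2 fold change of 0.05 with the narrowest interval of the group (-0.12 to 0.22, limma adjusted p = 0.708), and of -0.17 after quantile normalization. H3F3A measured 7.32, 4.02 and 3.11 FPKM in control and 6.39, 4.67 and 9.26 with RBMX (log2 fold change 0.44, 95% interval -0.39 to 1.28, limma adjusted p = 0.511). H3F3B thus made up 97.8% to 99.3% of the summed H3F3A and H3F3B level in the total libraries and 98.3% to 99.7% in the polysomal libraries, and its share overlapped between the groups in every comparison (exact permutation p from 0.2 to 0.9). The pseudogene with the same coding sequence as H3F3A, H3F3AP4, was listed above it in every library, at 16.5 to 29.7 FPKM, so this share depends on how the fragments common to both were assigned. In total RNA H3F3AP4 had a log2 fold change of -0.44 and H3F3C, another H3.3-like gene, one of 0.16 (limma adjusted p = 0.177 and 0.238). H3F3C ran from 44.1 to 56.3 FPKM, above H3F3A in every library. It did not meet the cutoff for a near copy of either H3.3 gene, and how fragments were assigned between it and H3F3B was not tested.

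CENPA, the centromeric H3, measured 30.4, 27.2 and 34.5 FPKM in control and 21.7, 25.3 and 28.0 in RBMX total RNA. Only the highest RBMX library overlapped the lowest control library, and the log2 fold change was -0.29 (SE 0.13, 95% interval -0.60 to 0.03, limma adjusted p = 0.294).

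Among the linker histones H1F0 varied most. It measured 131, 138 and 124 FPKM in control total RNA and 203, 203 and 114 with RBMX. RBMX cultures 1 and 2 were therefore well above every control library, while RBMX culture 3 was below them all. RBMX itself stood at 1731, 2073 and 1460 FPKM in total RNA of these cultures, and a link between its level and H1F0 was not tested. Over 3 cultures the log2 fold change of H1F0 was 0.36 (SE 0.24, 95% interval -0.24 to 0.96, limma adjusted p = 0.466). Without RBMX culture 3 it was 0.63 (limma adjusted p = 0.0477), a call that 1.21% of genes then shared, and without culture 3 of both vectors, an alternative added after the data were seen, it was 0.59 (limma adjusted p = 0.0330, 2.09% of genes called). H1FX, the other linker histone, measured 107, 109.5 and 83.3 FPKM in control and 103, 102 and 107 with RBMX, and its log2 fold change was 0.07 (SE 0.12, limma adjusted p = 0.770).

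**Figure D2:**
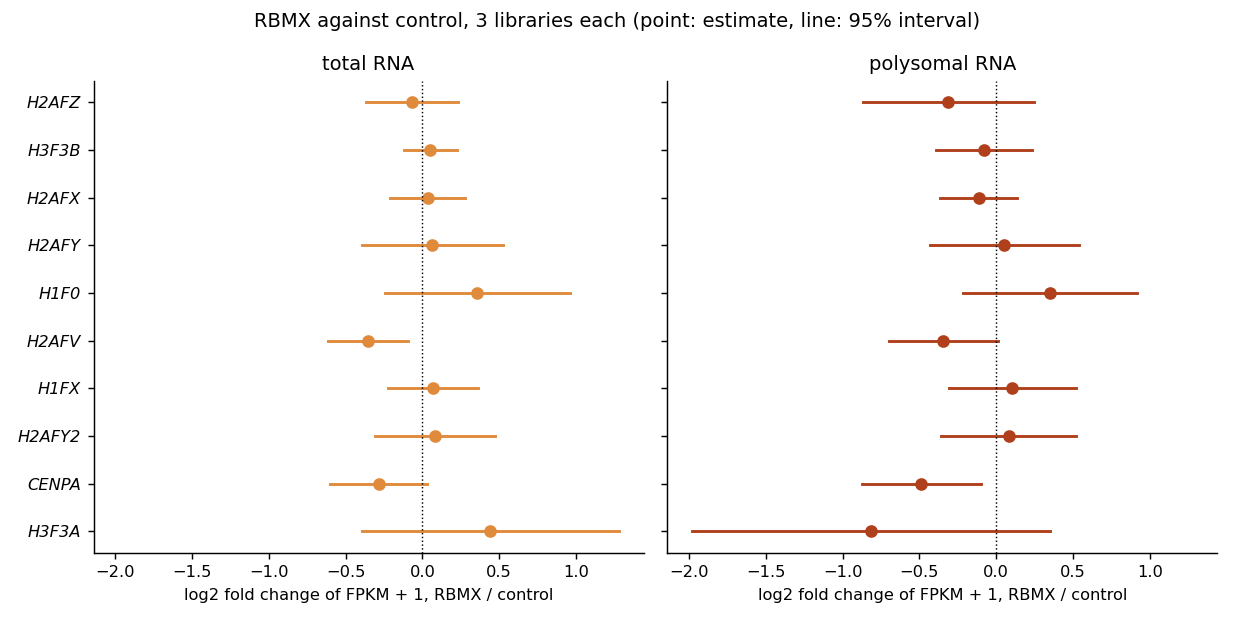
Log2 fold change of FPKM + 1, RBMX over control, for each gene in total RNA (left) and polysomal RNA (right), with points for the limma estimate from 3 libraries against 3 and lines for the 95% interval before adjustment. H2AFV in total RNA and CENPA in polysomal RNA are the intervals that do not reach 0, and neither passed the adjusted test.

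In polysomal RNA CENPA and H2AFV were the 2 members whose RBMX libraries all lay below the control libraries. None of the 10 passed the test, which 0.0477% of genes did, and 1 had an unadjusted p under 0.05, as 11.7% of genes did (limma). Groups that do not overlap, lower with RBMX, occurred for 12.5% of genes. The median estimate was -0.10 beside 0 for all genes, with 4 above 0 and 6 below, and -0.03 with 5 and 5 when RBMX polysomal culture 2 was left out.

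CENPA measured 29.7, 27.1 and 31.3 FPKM in control and 21.6, 16.5 and 24.5 in RBMX polysomal RNA. The lowest of these came from RBMX culture 2, the library rich in replication-dependent histone mRNAs. The log2 fold change was -0.49 (SE 0.15, 95% interval -0.87 to -0.10, limma adjusted p = 0.403), a level of 0.714 times the control, and -0.33 without that library.

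H2AFV measured 154, 151 and 169.5 FPKM in control and 116, 109.5 and 150.2 in RBMX polysomal RNA, with a log2 fold change of -0.35 (SE 0.14, 95% interval -0.70 to 0.01, limma adjusted p = 0.425). This was close to its value in total RNA, from other libraries of the same cultures. RBMX culture 3 again lay nearest to the control libraries.

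H2AFZ measured 1068, 1056 and 1221 FPKM in control and 955, 709.7 and 1062 in RBMX polysomal RNA. The groups overlapped by the highest RBMX library, and the log2 fold change of -0.31 (SE 0.22, limma adjusted p = 0.580) moved to -0.14 without RBMX culture 2. H3F3B had its lowest value in that library as well, with 419, 409.7 and 428 FPKM in control and 415, 351 and 427 with RBMX (log2 fold change -0.08, limma adjusted p = 0.797, or 0.01 without it).

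H1F0 measured 126, 127 and 124 FPKM in control and 189, 194 and 112 in RBMX polysomal RNA. The split between RBMX cultures 1 and 2 and RBMX culture 3 seen in total RNA was thus present in the polysomal libraries too. The log2 fold change was 0.35 (SE 0.23, limma adjusted p = 0.548), 0.60 without RBMX culture 3 (limma adjusted p = 0.0882) and 0.59 without culture 3 of both vectors (limma adjusted p = 0.0419, where 2.37% of genes were called).

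The remaining 5 genes had groups that overlapped. H2AFX measured 256, 262 and 281 FPKM against 240.4, 233 and 265 (log2 fold change -0.11), and H2AFY 235, 237 and 157 against 212, 195 and 236 (0.05). H2AFY2 measured 43.2, 42.9 and 28.3 FPKM against 40.2, 40.6 and 38.1 (0.08), and H1FX 122, 118 and 93.5 against 128, 133 and 98.4 (0.11). H3F3A measured 7.09, 3.45 and 5.94 FPKM against 1.31, 1.90 and 5.88, a log2 fold change of -0.81 with an interval from -1.98 to 0.35. Their adjusted p ran from 0.499 for H3F3A to 0.921 for H2AFY (limma).

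**Figure D3:**
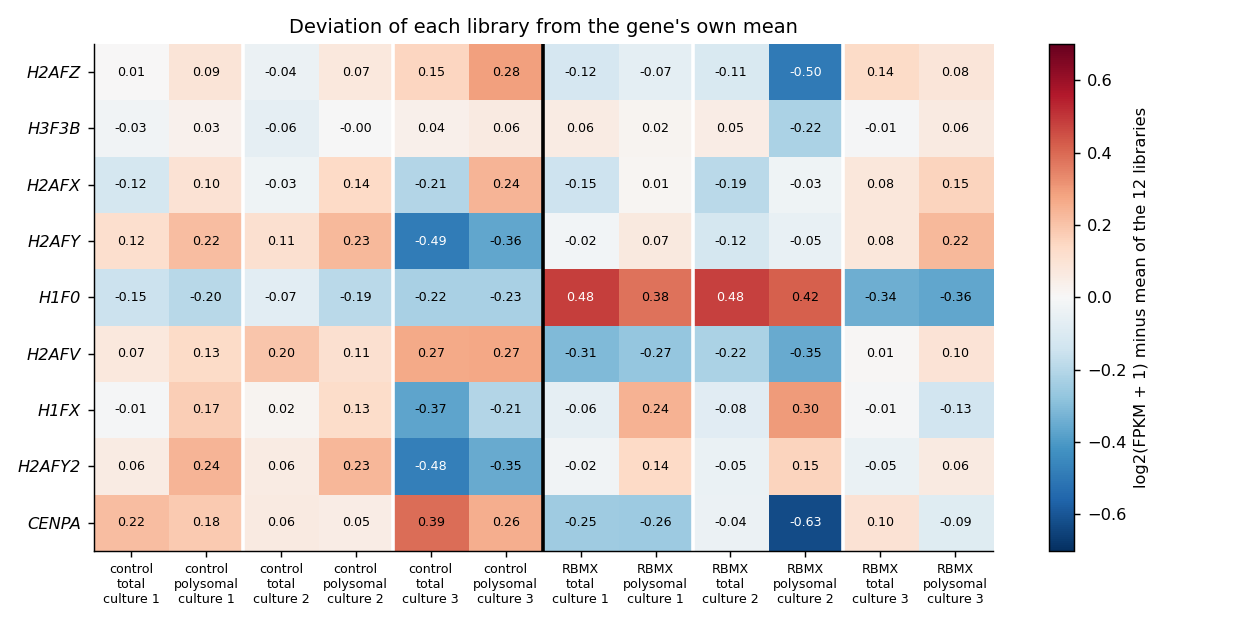
Deviation of log2(FPKM + 1) in each library from the mean of that gene over the 12 libraries, with genes in rows and libraries in columns by culture (H3F3A, with its low and uncertain level, is left out). H1F0 is at 0.48 and 0.48 in total RNA of RBMX cultures 1 and 2 and at -0.34 in culture 3, H2AFY, H2AFY2 and H1FX are below their means in both libraries of control culture 3, and RBMX polysomal culture 2 is the lowest for H2AFZ, H3F3B, H2AFV and CENPA.

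The genes varied together in 2 blocks across the libraries. Over the 12 libraries Pearson's r was 0.87 between H2AFZ and CENPA, 0.87 between H2AFV and CENPA and 0.80 between H2AFZ and H2AFV. It was 0.91 between H2AFY and H2AFY2 and 0.87 between H2AFY2 and H1FX, the genes lowest in control culture 3. H1F0 ran against the first block, with -0.88 to H2AFV, -0.76 to H2AFZ and -0.72 to CENPA. These are descriptions over libraries that share cultures, and single libraries weigh heavily in them. The genes most like H2AFZ over the same 12 libraries were GABARAPL2 (r = 0.98), CUTC (0.97) and CDKN2C (0.97), those most like H3F3B were TMEM199 (0.94), EXOSC1 (0.94) and SDHAF2 (0.93), and those most like H2AFX were PDAP1 (0.97), DRAP1 (0.94) and DCAF11 (0.94).

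Between polysomal and total RNA of control cells H2AFX was the only member whose polysomal libraries all lay above the total libraries, and no member had them all below. Over all genes 7.63% had them all above and 7.31% all below. The log2 ratios ran from -0.06 for CENPA to 0.28 for H2AFX. None of the 10 passed the test (limma), which 0.0818% of genes did, or 0.0409% when the total and polysomal libraries of a culture were paired by a block. An unadjusted p under 0.05 was reached by 1 member and 8.04% of genes, or by 3 members, H2AFX, H2AFY2 and H1FX, and 21.0% of genes in the blocked fit. The median estimate was 0.11 beside 0 for all genes, with 7 above 0 and 3 below, and 8 and 2 after quantile normalization.

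H2AFX measured 218, 233 and 206 FPKM in total RNA of control cells and 256, 262 and 281 in polysomal RNA of the same cultures. All 3 polysomal libraries were above all 3 total libraries, as for 7.63% of genes in this direction. The log2 ratio was 0.28 (SE 0.08, 95% interval 0.07 to 0.49, limma adjusted p = 0.597), or 0.203 for the adjusted p with the block. With RBMX the log2 ratio of H2AFX was 0.13 (SE 0.10, limma adjusted p = 0.475), and the difference between the vectors, -0.15 (SE 0.14), did not pass the test (limma adjusted p = 1.00).

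In RBMX cells H2AFY2 was the only member whose polysomal libraries all lay above the total libraries, and no member had them all below. Over all genes 14.6% had them all above and 16.2% all below. The log2 ratios of polysomal over total RNA ran from -1.08 for H3F3A and -0.26 for CENPA to 0.19 for H1FX. None of the 10 passed the test, which 1.34% of genes did, or 0.0273% with the block (limma). An unadjusted p under 0.05 was reached by 1 member and 23.0% of genes, or by 2, H2AFY2 and H3F3A, and 21.9% with the block. The median estimate was -0.03 beside -0.001 for all genes, with 4 above 0 and 6 below, 8 and 2 after quantile normalization, and 7 and 3 without RBMX polysomal culture 2.

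H2AFY2 measured 35.8, 35.2 and 35.2 FPKM in total and 40.2, 40.6 and 38.1 in polysomal RNA of RBMX cells. The groups did not overlap, as for 14.6% of genes in this direction, and the log2 ratio was 0.16 (SE 0.04, 95% interval 0.05 to 0.27, limma adjusted p = 0.140). In control cells the ratio was the same size, 0.16, with a wide error (SE 0.23) in the unpaired fit, where control culture 3 was low in both fractions. With the block the interval of H2AFY2 in control cells was 0.05 to 0.27 (limma adjusted p = 0.196). The ratio of H2AFZ in RBMX cells was -0.13 (SE 0.20), but 0.04 without RBMX polysomal culture 2 and 0.55 after quantile normalization. H3F3A measured 6.39, 4.67 and 9.26 FPKM in total and 1.31, 1.90 and 5.88 in polysomal RNA, a log2 ratio of -1.08 (SE 0.46, 95% interval -2.23 to 0.07, limma adjusted p = 0.238), with an interval of -1.80 to -0.35 in the blocked fit (limma adjusted p = 0.194), at a level at the 29.4th percentile of the genes tested.

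Within single cultures the 2 macroH2A genes and H2AFX were higher in polysomal than in total RNA in 6 of 6 cultures, as were 16.0% of all genes. For H2AFY the log2 ratio was 0.10, 0.12 and 0.12 in the control cultures and 0.09, 0.07 and 0.14 in the RBMX cultures. For H2AFY2 it was 0.18, 0.17 and 0.12 and then 0.16, 0.20 and 0.11. CENPA and H1F0 were lower in polysomal RNA in 6 of 6 cultures, as were 16.5% of all genes, though the mean ratio of H1F0 in RBMX cells was 0.09 after quantile normalization. H1F0 ratios lay between -0.11 and -0.0004, and CENPA ratios between -0.01 and -0.59, the last in RBMX culture 2. H1FX was higher in 5 of 6 cultures, with -0.12 in RBMX culture 3.

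**Figure D4:**
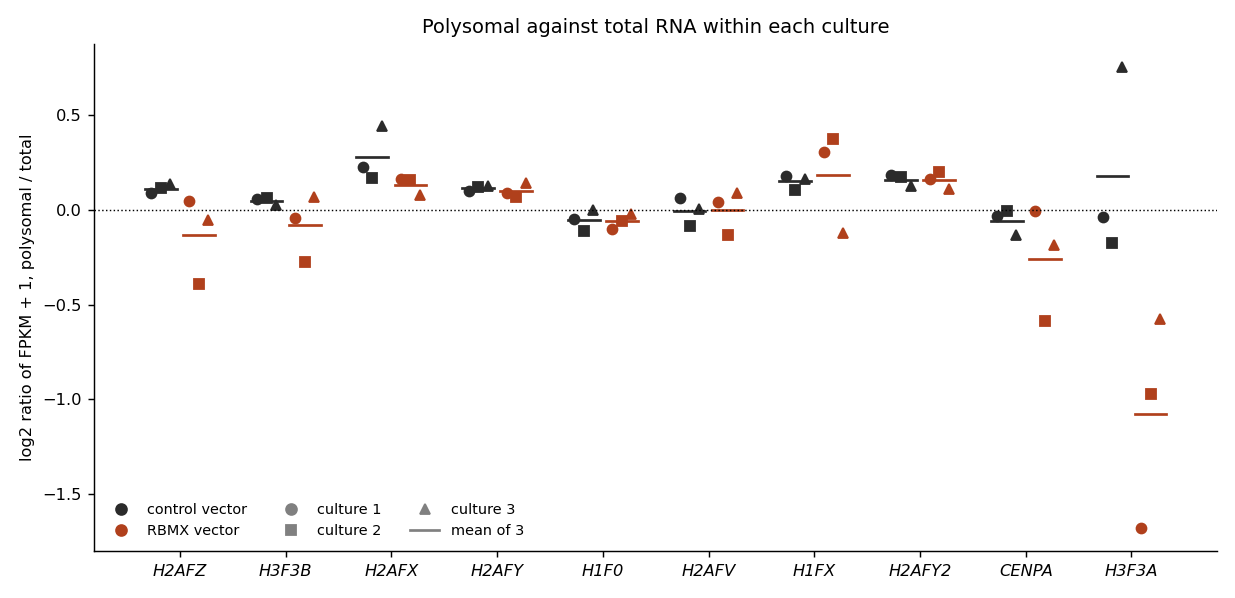
Log2 ratio of FPKM + 1 in polysomal over total RNA of the same culture for each gene, black for the control vector and red for RBMX, with a symbol for each culture and a line for the mean of 3. H2AFX, H2AFY and H2AFY2 are above 0 in 6 of 6 cultures, CENPA and H1F0 below it in 6 of 6 (H1F0 in RBMX cells averages 0.09 after quantile normalization), and RBMX culture 2 is the lowest point of H2AFZ, H3F3B, H2AFV and CENPA.

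None of the 10 genes passed the test of whether the RBMX effect differed between polysomal and total RNA (limma on all 12 libraries, 0.0204% of genes called, or 0.0341% with the block). An unadjusted p under 0.05 was reached by 0 members and 0.600% of genes, or by 1 member, H3F3A, and 2.15% with the block. The difference of H3F3A, the largest in size of the 10, was -1.25 (SE 0.61, 95% interval -2.62 to 0.11, limma adjusted p = 1.00), and its interval was -2.15 to -0.36 with the block, unadjusted for the number of genes (limma adjusted p = 1.00). For the other 9 the differences ran from -0.24 for H2AFZ to 0.04 for H1FX, and the typical interval of a member reached 0.50 to either side.

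The genes that place and read these variants gave 0 calls in the comparison of RBMX with control. Of the 7 genes for H3.3 deposition, 11 for H2A.Z deposition and removal, 7 for CENP-A deposition, 8 of the H2A.X response and 11 general histone chaperones, 0 passed the test of RBMX against control in either fraction (limma), and 1 of them in total and 2 in polysomal RNA had an unadjusted p under 0.05, where 18.8% and 11.7% of all genes did. For H3.3 deposition the median log2 fold change was 0.02 in total and 0.08 in polysomal RNA, with DAXX, which works with ATRX at telomeres, at 0.05 and -0.03, HIRA, the chaperone for active genes, at 0.14 and 0.21, and ASF1A, which hands histones to HIRA, at -0.04 and -0.14. For H2A.Z the medians were 0.15 and 0.12, with the ATPases RUVBL2 at 0.36 and 0.30 and RUVBL1 at 0.32 and 0.35, and ANP32E, a chaperone that removes H2A.Z, at -0.12 and -0.05. For CENP-A they were -0.08 and -0.11, with the histone-binding RBBP7 at 0.12 and 0.16 and the loading factors MIS18A at -0.11 and -0.23 and CENPN at -0.20 and -0.35.

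The H2A.X response had medians of 0.04 and 0.04, with the kinase BAZ1B at 0.16 and 0.29, MDC1, which binds phosphorylated H2A.X, at 0.13 and 0.19, and the ubiquitin ligase RNF8 at 0.08 and 0.03. The general chaperones had medians of 0.17 and 0.18, with NPM1 at 0.13 and 0.14, SET at -0.04 and -0.06 and SSRP1 at 0.22 and 0.29. With culture 3 of both vectors left out, these medians were -0.05 and -0.11 for the chaperones, -0.01 and 0.01 for H2A.Z, and -0.13 and -0.26 for CENP-A deposition.

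Cell cycle genes were examined because canonical histone mRNAs follow S phase. Of 12 S phase genes 11 were above 0 in total and 10 in polysomal RNA, with medians of 0.21 and 0.26 and 0 past the test or an unadjusted p under 0.05. PCNA, the replication clamp, was at 0.22 and 0.06, TYMS, which makes thymidylate, at -0.10 and -0.08, and MCM7, a helicase subunit, at 0.42 and 0.38. The summed level of the list was 970.1 and 904 FPKM in control culture 3 and 1341 to 1556 elsewhere, and without culture 3 of both vectors the medians were 0.01 and -0.11. Of 12 G2 and M phase genes 9 and 10 were above 0, with medians of 0.07 and 0.09, or of -0.17 and -0.31 without culture 3 of both vectors. The mitotic kinase genes AURKB, CDK1 and the cyclin gene CCNB1 were at 0.18, 0.05 and 0.17 in total and at 0.10, 0.07 and 0.24 in polysomal RNA.

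The replication-dependent histone genes, taken as symbols that start with HIST and a digit, are set beside the 10 variants here. The stem-loop letters, a fixed pattern searched in annotated transcripts, were found in 43.66% of the 71 such genes annotated as protein-coding. The list may hold genes without a stem-loop, but one with other letters or beyond the annotated end would be missed. Of 73 listed 49 were tested, and their median log2 fold change in total RNA was -0.37, with 42 below 0 and 7 above, beside 49.8% of all genes below 0. An unadjusted p under 0.05 was reached by 29 of the 49 and by 18.8% of all genes. The 10 variants had a median of 0.06 (-0.05 after quantile normalization). The study's methods name the TruSeq RNA Sample Prep Kit for these libraries and do not say how RNA was selected. Messenger RNAs with and without a poly(A) tail may therefore not have been captured alike, which was not tested. HIST1H2AL, a canonical H2A gene, passed the test in total RNA with a log2 fold change of -0.94 (SE 0.07, limma adjusted p = 0.0236), but not with a replicate block (0.195). In polysomal RNA the median was 0.41, with 43 above 0, but -0.41 with 44 below 0 when RBMX polysomal culture 2 was left out. These genes are near copies of each other, so values of single genes are uncertain. HIST3H2A, shown above with its stem-loop, had log2 fold changes of 0.37 and 0.22 (limma adjusted p = 0.200 and 0.425).

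Of the 7 genes for stem-loop processing, 0 passed the test of RBMX against control, with medians of -0.05 and -0.01. SLBP, which binds the stem-loop, was at -0.01 and -0.04 and CASP8AP2, needed for histone gene expression, at -0.12 and 0.005. LSM10, a subunit of the U7 particle that cuts histone mRNA, passed the test of polysomal against total RNA in RBMX cells with a log2 ratio of -1.09 (SE 0.14, limma adjusted p = 0.0440), but not with the block (0.115), and its ratio in control cells was -0.65 (SE 0.27). Of the other variant genes listed, H3F3C and H2AFJ were tested, and neither passed in any of the 5 comparisons.

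**Figure D5:**
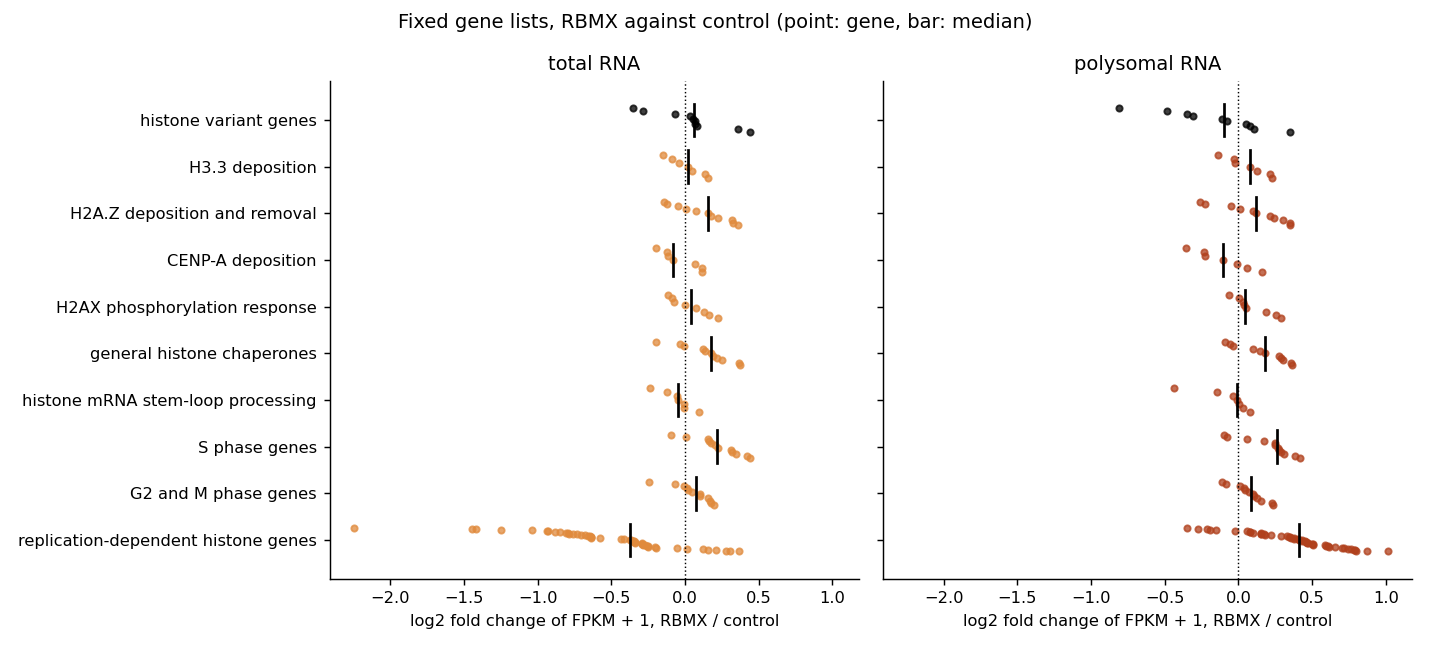
Log2 fold change of FPKM + 1, RBMX over control, in total RNA (left) and polysomal RNA (right) for the 10 histone variant genes and 9 gene lists, with a point for each gene and a bar for the median. The replication-dependent histone genes have a median of -0.37 on the left and 0.41 on the right, which becomes -0.41 without RBMX polysomal culture 2, while the histone variant genes have medians of 0.06 (-0.05 after quantile normalization) and -0.10.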

How the data were processed

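The authors deposited FPKM values per gene symbol for 12 libraries. The submitters' processing notes name CASAVA 1.8, TopHat2 2.0.13, Cufflinks 2.2.1, Cuffnorm and hg19, whereas the study's methods describe alignment to hg38 and DESeq2 on counts, which were not used here. The annotation behind the FPKM values and any scaling between libraries are not given in the sources used here, and isoforms were not separated. The FPKM worth of 1 fragment could not be recovered, since only 11.5% to 23.5% of genes up to 0.05 FPKM shared a step of 0.05 on the log2 scale.

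On the log2(FPKM + 1) scale, which understates changes of low genes, limma 3.58.1 (lmFit, eBayes with trend, R 4.3.3) was fitted to the 14676 genes whose FPKM averaged 0.5 or more, with Benjamini-Hochberg adjustment over all of them and a threshold of 0.05. RBMX was compared with control in each fraction and polysomal with total RNA for each vector, on 6 libraries each, and the RBMX effects of the fractions with each other on all 12. Shares were compared by exact permutation over libraries. For RBMX against control the p-values measure the spread between the 3 cultures a vector, which the study calls biological replicates. Without the block, tests of polysomal against total RNA, shares included, and of the fractions' RBMX effects treat both libraries of a culture as independent. With the block, these fits measure the spread of the ratios within cultures.

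By the protocol total and polysomal RNA are pooled from the same gradient, which pairs them, although the labels also mention separate dishes. Over 14171 genes other than small RNA genes, the deviations of the 2 libraries of a culture correlated with 0.552, 0.660 and 0.804 in control and 0.216, 0.0191 and 0.646 in RBMX cultures 1 to 3. Genes within a library are not independent of each other.

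The 10 genes and all lists were chosen with earlier results of these data known. The genes named are RBMX, the 10 members, list genes past the threshold and otherwise up to 3 per list with the highest mean FPKM, the 3 genes most correlated with each of the 3 most abundant members, possible sharers of fragments, and markers. Sequences came from GENCODE 29 on GRCh38, and copies from BLAST 2.17.0 (at least 100 bases at 97% identity). In simulated data with 200 of 14676 genes changed, 83% were recovered in total RNA (75% at a log2 fold change of 1) and 84.5% in polysomal RNA (77%), and 0 were called with no gene changed. The simulated noise was independent between libraries, so shared cultures and libraries that stand apart were not imitated. No log2 change smaller than 1 in size was planted. These shares therefore do not cover smaller changes, such as those estimated for most of the 10 genes. Alternatives were a pseudocount of 0.1, other filters, median-ratio and quantile scaling, eBayes without trend, no small RNA genes, a replicate block, 1 fit on 12 libraries, and each library left out. Leaving out both cultures 3 was added after seeing the data.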

Additional observations from a re-analysis of the deposited data

How the results depend on the processing

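Of 870 refits of the 10 genes 3 passed the threshold, all of them of H1F0 and given with its results. Depth is unknown and 3 libraries a group are few, so for each gene a change of any size within its interval remains possible. The intervals are not adjusted for the number of genes, and the genes whose interval left out 0 did not pass the adjusted test. Counts of calls over all genes changed with the setting, and the cause was not tested. In total RNA (24 calls) they were 62 and 73 with a minimum of 0.1 and no filter, 60 with 1 fit on 12 libraries, 306 without both cultures 3 and 19 to 178 with a library left out. In polysomal RNA (7) they were 14 with a minimum of 0.1, 2 without small RNA genes, 22 on 12 libraries, 348 without both cultures 3 and 9 to 126 with a library left out. For polysomal against total RNA in control cells (12) they were 6 without small RNA genes, 41 on 12 libraries and 12 to 26 with a library left out, and in RBMX cells (196) 53 with no filter, 70 after quantile normalization, 429 without small RNA genes, 21 on 12 libraries and 10 to 42 with a library left out. For the difference between the fractions (3) they were 5 with no filter, 0 without small RNA genes and 3 to 7 with a library left out. With the replicate block, or pairing, the 5 counts were 13, 3, 6, 4 and 5, and no call on the 10 genes changed. RBMX and control cultures share only a number, and their deviations correlated between -0.0740 and 0.330. With a library left out 0 to 1 of the 10 genes was called in total RNA and 0 elsewhere, and without both cultures 3 it was 1, H1F0, in either fraction.

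Signs of log2 fold changes near 0 turned as follows. After quantile normalization the values in total RNA were -0.057 for H2AFX, -0.037 for H2AFY, -0.17 for H3F3B and -0.024 for H1FX. For polysomal against total RNA they were 0.039 for H2AFV in control cells and 0.55 for H2AFZ, 0.12 for H2AFV, 0.35 for H3F3B and 0.092 for H1F0 in RBMX cells, and for the difference between fractions 0.078 for H2AFY, 0.019 for H2AFY2, 0.076 for H3F3B and 0.13 for H1F0. Median-ratio rescaling gave 0.0072 for H2AFV in RBMX cells, and 0.0088 for H2AFY2 and 0.0022 for H1F0 for the difference. Without both cultures 3 total RNA gave -0.091 for H2AFX, -0.19 for H2AFY, -0.092 for H2AFY2 and -0.076 for H1FX, and polysomal RNA -0.22 for H2AFY and -0.088 for H2AFY2.

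With a library left out, values in total RNA ran from -0.056 to 0.14 for H1FX, -0.048 to 0.085 for H2AFX, -0.14 to 0.17 for H2AFY and -0.097 to 0.17 for H2AFY2. In polysomal RNA they ran from -0.013 to 0.24 for H1FX, -0.14 to 0.15 for H2AFY, -0.12 to 0.18 for H2AFY2 and -0.13 to 0.0082 for H3F3B. For polysomal against total RNA in control cells they ran from -0.14 to 0.026 for CENPA, -0.060 to 0.038 for H2AFV, -0.087 to 0.31 for H2AFY, -0.018 to 0.36 for H2AFY2 and -0.038 to 0.47 for H3F3A. In RBMX cells they ran from -0.34 to 0.19 for H1F0, -0.14 to 0.091 for H2AFV, -0.25 to 0.035 for H2AFZ and -0.14 to 0.0051 for H3F3B. For the difference they ran from -0.28 to 0.25 for H1F0, -0.082 to 0.17 for H1FX, -0.13 to 0.098 for H2AFV, -0.21 to 0.19 for H2AFY and -0.20 to 0.18 for H2AFY2. The refits of polysomal against total RNA and of the difference were not paired, so the other library of the same culture stayed in. Within cultures H2AFY and H2AFY2 were higher in polysomal than in total RNA in 6 of 6. Differences of the H2AFZ share ran from -0.44 to 0.82 points in polysomal RNA, and of the H3F3B share from -0.41 to 0.11 points for polysomal against total RNA in control cells.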
